A study of Mus musculus with 18 samples.

Results

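The regions described here were chromatin sites of mouse macrophages that became more accessible after each of 3 Toll-like receptor (TLR) ligands and not after the cytokine TNF. They were chosen from group means of accessibility on a log2 scale: CpG, LPS and polyI:C had each to lie at least 0.8 above medium, and TNF less than 0.4 above medium. This gave 316 of 53796 regions (0.587%). The 3 TLR thresholds alone were passed by 2644 regions (4.91%), and 1552 regions (2.88%) lay at least 0.8 above medium with all 4 stimuli. Start and end of each region lie 501 bases apart, with positions in the genome build mm10.

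Accessibility was measured by ATAC-seq, an assay in which a transposase cuts and tags DNA that is not packed away, so that more reads from a site mean a more open site. The cells were bone marrow-derived macrophages (BMDM) of wild-type C57BL/6 mice aged 6 to 12 weeks, grown with 20 ng/mL M-CSF, which all groups share. A first treatment of 4 h was followed by a change of medium and a second treatment of 4 h, and groups are named by both letters in that order (M medium, C CpG, L LPS, P polyI:C, T TNF). MM had medium in both steps. MC, ML, MP and MT had medium and then CpG at 100 nM, LPS at 1 ng/mL, polyI:C at 1 µg/mL or TNF at 10 ng/mL. CL and CT had CpG first, PL and PT had polyI:C first, and LPS or TNF followed at the same doses. Each of the 9 groups had 2 libraries. The labels do not say whether these came from separate mice or cultures. P-values therefore measure the spread between libraries, pooled over the 9 groups, which may be technical.

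CpG DNA is sensed by TLR9 and double-stranded RNA such as polyI:C by TLR3, both inside endosomes, and LPS by TLR4 at the cell surface. These receptors switch on NF-kB and MAP kinases, and through interferon regulatory factors they can also induce type I interferon, which acts back on the macrophage through IFNAR and STAT proteins. TNF signals through its own receptors, chiefly to NF-kB and MAP kinases.

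Reads in regions ran from 3141641 (MM replicate 2) to 5986835 (MT replicate 1) per library, and the shallow libraries besides MM replicate 2 were PT replicate 2 (3317412), CL replicate 1 (3901543) and MT replicate 2 (3936304). All 8 macrophage markers checked had a region within 1 kb of a gene end, with mean levels of 3.50 to 5.86 log2 CPM. Such a region was found for 1 of 7 T and NK cell, 2 of 5 B cell, 3 of 6 neutrophil, 2 of 5 dendritic cell and 1 of 6 fibroblast and endothelial markers, at 2.75 to 5.65, so the levels at the regions found do not part the cell types. The PT libraries stood apart from each other more than any other pair (r = 0.919 across regions, against 0.958 to 0.973 in the other groups). The fit pooled the spread of all groups into 1 variance per region. Tests with PT therefore do not carry its own wider spread, and tests without PT carry part of it. Between the 2 MP libraries there was no difference beyond sampling noise (chi-square per region 1.003, against 2.712 for PT). They may be 1 library in 2 parts, and their mean is read as 1 sample. Chi-square per region was 1.069 for ML and 1.077 for MM, so this measure alone does not set MP apart. MP enters no tested comparison. The fit took the pair as 2 libraries for its variance estimate, and counts from a fit with the pair as 1 sample are given beside the results.

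Sequence could be read for the few promoters that the regions lie on. The regions overlapped the RefSeq promoter windows (GRCm38.p6, the same build, 250 bases before to 50 after a start) of Ifit3, Oasl1, Bcl2a1a, Pigv and the non-coding RNA gene AW112010. Of the 264 assigned genes 205 have such a window, and its start can be that of 1 transcript inside the span of the gene. For 3 of these genes the 250 bases before the start are printed, because they differ in the motif letters they hold while their regions follow the same rule. Capitals mark matches to GAAANNGAA on either strand, the core letters of the interferon-stimulated response element (ISRE).
Ifit3, chr19:34583279-34583528, plus strand: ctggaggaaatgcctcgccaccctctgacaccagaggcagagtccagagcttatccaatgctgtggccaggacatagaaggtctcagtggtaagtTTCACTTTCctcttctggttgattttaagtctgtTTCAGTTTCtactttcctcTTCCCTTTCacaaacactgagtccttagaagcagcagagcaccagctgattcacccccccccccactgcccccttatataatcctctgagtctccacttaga
Oasl1, chr5:114922990-114923239, plus strand: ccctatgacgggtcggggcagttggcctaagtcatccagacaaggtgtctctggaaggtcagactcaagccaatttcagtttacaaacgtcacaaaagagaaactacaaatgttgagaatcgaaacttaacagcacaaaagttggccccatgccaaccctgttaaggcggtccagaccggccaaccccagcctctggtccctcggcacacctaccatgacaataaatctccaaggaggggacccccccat
Bcl2a1a, chr9:88956670-88956919, plus strand: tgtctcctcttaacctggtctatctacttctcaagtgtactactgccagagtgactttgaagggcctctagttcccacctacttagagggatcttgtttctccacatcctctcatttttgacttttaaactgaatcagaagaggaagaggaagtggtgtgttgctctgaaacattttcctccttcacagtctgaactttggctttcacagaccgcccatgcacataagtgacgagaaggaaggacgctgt
The ISRE letters occurred in 2 of the 6 windows of the 5 genes and in 8.56% of all 32851 promoter windows. The AP-1 letters TGANTCA were in 2 of 6 (7.81% of all windows), and the PU.1 letters GAGGAAG in 2 of 6 (13.6%). The letters searched for GAS (TTCNNNGAA), kB (GGGANTTCC) and C/EBP (TTGCGNAA) were not in these 6 windows. Each was a single fixed pattern, and kB sites of another length were not searched for. The AW112010 window holds ggaatttccc, which is close to the kB letters but is not matched by them. The search therefore does not show that these windows lack kB sites. Matches were sought on both strands and may overlap, as the PU.1 letters do at Bcl2a1a, and a match is a description of the letters. Reads from Bcl2a1a, a gene with near-identical copies, may be shared with those copies.

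The levels at Oasl1 and Ifit3 are given as examples. Oasl1, an oligoadenylate synthetase-like antiviral gene, had 2.99 and 3.13 log2 CPM in MM and 2.31 and 2.83 in MT at chr5:114922986-114923487. There the TLR ligand libraries read 3.82 and 4.46 (ML), 4.97 and 5.01 (MC) and 6.17 and 6.20 (MP). Ifit3, an interferon-induced RNA-binding protein gene, had 2.93 and 2.97 in MM, 3.32 and 3.23 in MT, and 4.13 to 5.35 in ML, MC and MP at chr19:34583288-34583789. At both genes polyI:C gave the highest and LPS the lowest of the 3 TLR levels.

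The values that chose the regions are given as a description, with no test. The median differences from MM were 1.51 with CpG (range 0.80 to 4.21), 1.05 with LPS (0.80 to 3.17), 1.40 with polyI:C (0.80 to 4.74) and 0.23 with TNF (-0.91 to 0.40), each with a median SE of 0.26. Small positive differences with TNF were common, as 181 of the 316 lay between 0.2 and 0.4 above medium, while 54 lay below it. Among the TLR ligands, polyI:C gave the highest level at 161 regions, CpG at 132 and LPS at 23. In the bulk cell samples used here, a site open in more cells and a site more open in each cell cannot be told apart.

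These were sites of low accessibility at rest. Their median level was 1.55 log2 CPM in MM and 1.79 in MT, against 3.68 over all regions in either group. It was 2.84 in ML, 3.31 in MC and 3.50 in MP. The median region held 14 and 8 reads in the MM libraries and 18 and 11 in MT, and 4 regions had 0 reads in MM replicate 2. By mean level over all libraries the median member stood at the 18.7th percentile, and 127 members were at or above the 25th.

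The membership was sensitive to the scaling of the libraries and to single libraries. After quantile normalization 187 regions met the rule, of which 72 were among the 316. With thresholds of 1 and 0.2, 48 regions remained. Leaving out 1 library of the 5 groups of the rule gave between 297 and 393 regions, but not the same ones: 167 of the 316 met the rule without MM replicate 1, and 175 when MM replicate 2 was left out. Omitting an MT library kept 245 (replicate 1) or 233 (replicate 2) of them. Just inside the TNF threshold were regions assigned to Lta (0.398), Depdc5 (0.3982) and Sars (0.3995), and just outside were Il12a (0.4011), Ptk2b (0.402) and Tcea1 (0.402). The Il12a region, left out by the TNF threshold, lay 2.69 above MM with CpG, 2.01 with LPS and 1.19 with polyI:C.

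**Figure D1:**
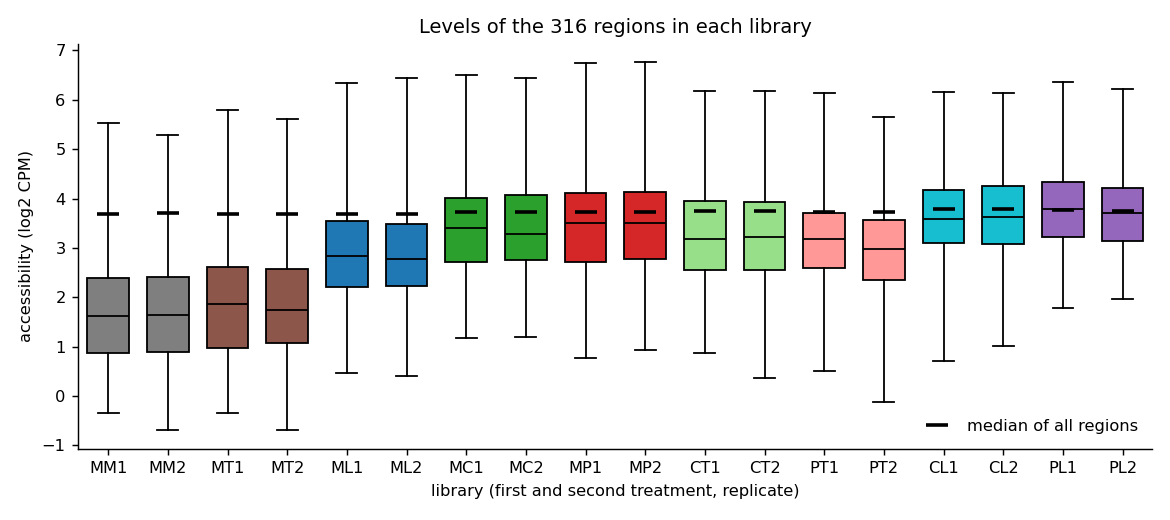
Accessibility (log2 CPM, y axis) of the 316 regions in each of the 18 libraries (x axis). Boxes give quartiles and median, whiskers the lowest and highest region, and the thick dash the median of all 53796 regions. The MM and MT boxes lie low by the rule, and the median of the members reached 3.61 in CL and 3.73 in PL, near that of all regions.

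Few of the regions lay at gene ends. Of the 316, 33 (10.4%) were within 1 kb of an end of a protein-coding gene, against 24.9% of all regions and 5.86% of regions opened by all 4 stimuli. Inside a gene and away from its ends were 164 (51.9%, against 43.0% of all regions). Between genes and within 50 kb were 94 (29.7%, against 22.9%), and 25 (7.91%, against 9.19%) were farther away. The median distance to a gene end was 11.3 kb, against 9.44 kb over all regions and 18.8 kb where all 4 stimuli opened the site. A gene end itself was covered by 10 members, at Mrpl39, Ccl5, Acod1, Oasl1, Cars, Batf2, Nos2, Parp10, Socs3 and Bcl2a1a.

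By the nearest protein-coding gene within 50 kb, 291 members were assigned to 264 genes. Assignment by position does not show which gene a site regulates, and 245 members kept their gene when the nearest gene end was used in place of the gene body. Most genes (246) had 1 member, 13 had 2 and 5 had 3 or more. The members often had neighbours of the broader response: 101 (32.0%) had a region opened by all 4 stimuli within 50 kb, against 15.9% of all regions. For 79 of the 264 genes, a region opened by all 4 stimuli was assigned to the same gene.

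Inflammatory effector genes were among those with the most members. Acod1, whose enzyme makes itaconate from a citrate cycle intermediate, had 5 members among its 22 regions, and 7 of its other regions were opened by all 4 stimuli. At the strongest of them, chr14:103057817-103058318, 1244 bp from a gene end, levels were 0.19 and 0.64 log2 CPM in MM and 0.70 and 0.90 in MT. They were 3.54 and 3.63 in ML, 4.13 and 3.97 in MC, and 4.75 and 4.51 in MP. With 2 stimuli they were 5.34 and 4.77 in CL, 5.73 and 5.60 in PL, 3.94 and 3.64 in CT, and 4.94 and 4.15 in PT. This was the member with the largest mean rise over the 3 TLR ligands, and both MT libraries lay below every library that had received a TLR ligand.

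The chemokine gene Ccl5, which draws T cells and monocytes, had 4 members among 7 regions, and Ccl4, which draws monocytes, had 3 among 7. At the Ccl5 site chr11:83524002-83524503 the MM libraries read -0.05 and -0.70, and MT 0.16 and -0.70, where -0.70 stands for 0 reads. ML was low too, at 1.33 and 1.26, while MC gave 3.28 and 2.97 and MP 4.06 and 3.78. At a member that covers a Ccl5 gene end, chr11:83530280-83530781, MM read 0.88 and 0.31, MT 0.70 and 1.08, and MP 4.90 and 4.96. The Ccl4 site chr11:83665699-83666200 was already open in MM (2.64 and 2.91) and MT (2.80 and 2.88) and reached 5.01 and 5.17 in MP. The further inflammatory members were near Il12b, Nos2, Osm and Tnfsf15, 1 each.

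All 4 members assigned to Mrpl39, a mitochondrial ribosomal protein gene, lay 2858 to 6483 bp from Mir155, the gene of a microRNA known to be induced in activated macrophages (chr16:84714140-84714204). At chr16:84717797-84718298, 3593 bp from Mir155, MM read 0.58 and -0.10 log2 CPM and MT 0.16 and 0.45. LPS gave 2.47 and 2.39, CpG 3.91 and 3.69 and polyI:C 4.45 and 4.14. MM and MT overlapped there, and ML lay below MC and MP. Ms4a6d, a four-span membrane protein gene, had 3 members among 6 regions. Its site at chr19:11583907-11584408 was highest with CpG, at 4.49 and 4.23, against 2.26 and 2.78 with polyI:C, 3.10 and 2.66 with LPS, and at most 0.84 in MM and MT.

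Interferon-stimulated genes held 13 members among their 202 regions (6.44%, against 0.587% of all regions), at 11 genes: Cxcl10, Trim30a, Rsad2, Ifit1bl1, Oasl1, Ifit2, Usp18, Ifit3, Oas2, Ifi204 and Phf11d. The list of inflammatory cytokines and effectors held 16 of 205 (7.80%), and interferon regulatory and STAT factors 5 of 119 (4.20%), near Irf1, Batf, Batf2 and Stat3. These lists were drawn up with earlier results of the same data known, so the shares are descriptions. NF-kB subunits and feedback regulators held 3 of 248 (1.21%), TLR and interferon receptor signalling 3 of 225 (1.33%), and TNF receptor signalling 2 of 115 (1.74%). Metabolism and transport held 2 of 143 (1.40%), AP-1, EGR and C/EBP factors 2 of 164 (1.22%), antigen presentation 1 of 122 (0.82%) and macrophage identity 1 of 220 (0.455%). The marker list of dendritic cells held 1 of 23, near Xcr1, and the lists for stroma, neutrophils and lymphocytes held 0.

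Regions opened by all 4 stimuli were spread differently over the same lists. They made up 13.7% of the regions of NF-kB subunits and feedback regulators and 13.2% of inflammatory effector regions, and 1.98% of interferon-stimulated gene regions, where their share of all regions was 2.88%. The difference between these shares and those of the members was not tested. Of 26 well-known activation genes, 9 had a member (Cxcl10, Ifit2, Rsad2, Usp18, Irf1, Il12b, Nos2, Ccl5 and Socs3). Tnf, Il6, Il10, Nfkbia, Cd40, Cd86, Stat2, Irf7, Irf8 and Tlr3 had regions and no member.

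Within the interferon group the members differed in which ligand opened them most. Rsad2 encodes viperin, an antiviral enzyme. At chr12:26442981-26443482, 238 bp from a gene end, MM read 0.40 and 0.31 log2 CPM, MT -0.07 and 0.90, ML 1.63 and 1.79, MC 2.89 and 2.71, and MP 5.15 and 5.03. Cxcl10, an interferon-induced chemokine gene, had at chr5:92347089-92347590 a similar order: 0.74 and 0.31 in MM, -0.07 and 0.90 in MT, 1.22 and 1.46 in ML, 3.55 and 2.97 in MC, and 4.82 and 4.99 in MP. At these sites the 3 TLR ligands did not overlap. Usp18, which removes ISG15 and restrains the interferon receptor, went the other way at chr6:121249964-121250465: CpG gave 5.02 and 5.15, LPS 3.00 and 3.14, and polyI:C 2.31 and 2.36, over 1.13 and 1.78 in MM and 1.48 and 1.64 in MT.

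**Figure D2:**
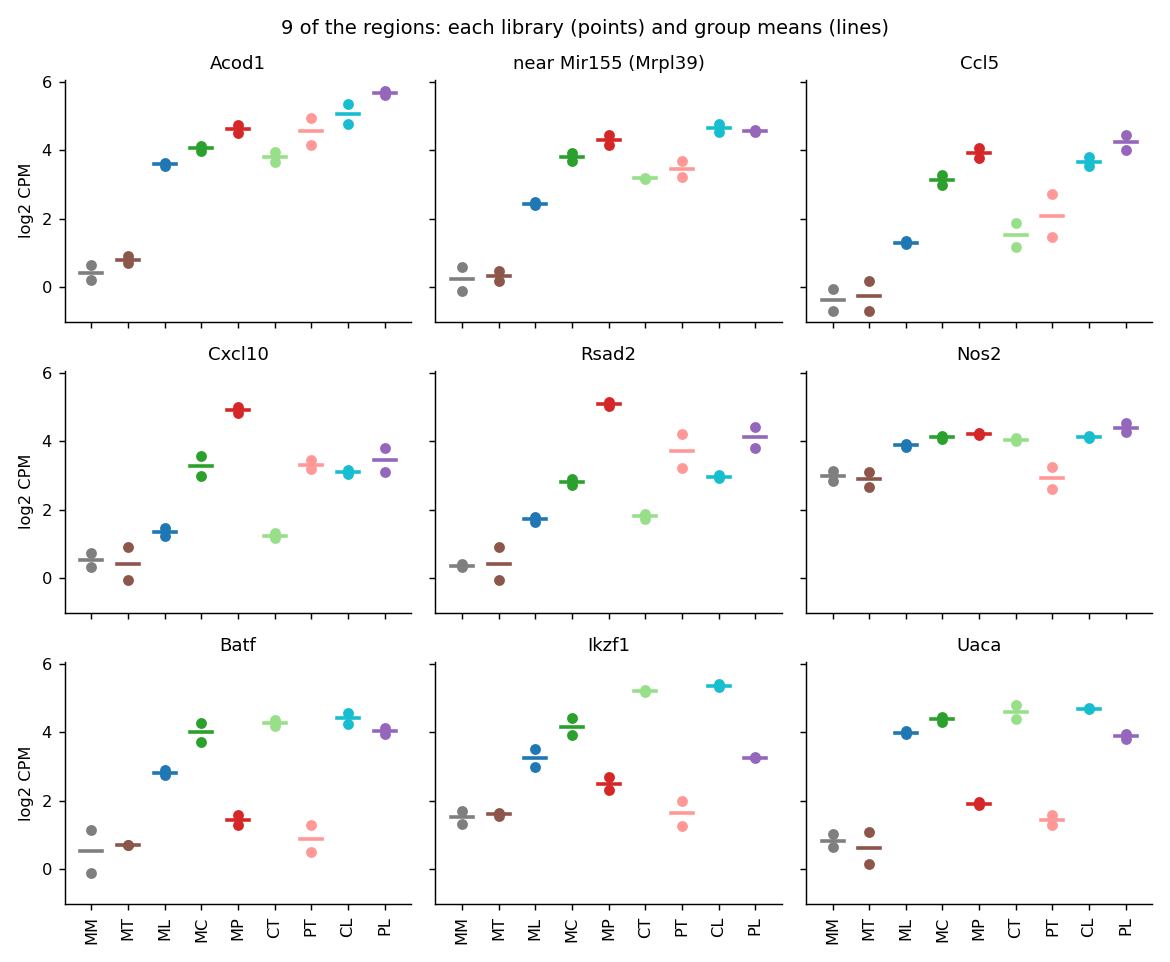
Accessibility (log2 CPM, y axis) of 9 of the regions in each group (x axis, named by first and second treatment). Points are the 2 libraries and lines the group mean. MM and MT lie low in each panel, MP is highest of the single stimuli at Rsad2 and Cxcl10, and MC at Batf, Ikzf1 and Uaca.

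With 2 stimuli the regions were mostly open. At least 0.8 above MM were 299 of 316 in CL (15.4% of all regions), 301 in PL (16.5%), 270 in CT (12.4%) and 240 in PT (14.0%). These counts share the MM libraries with the rule and are descriptions. Median levels were 3.61 log2 CPM in CL, 3.73 in PL, 3.17 in CT and 3.06 in PT. The CT mean was above the MT mean at 315 of 316 regions and the PT mean above it at 299. Against the ligand given after medium, the CT mean was above the MC mean at 111 regions and the PT mean above the MP mean at 93. CL was above ML at 278 and PL above ML at 283. The rule chose the members as low in MT and high in MC, ML and MP, so these counts depend on that choice and nothing is read from them.

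**Figure D3:**
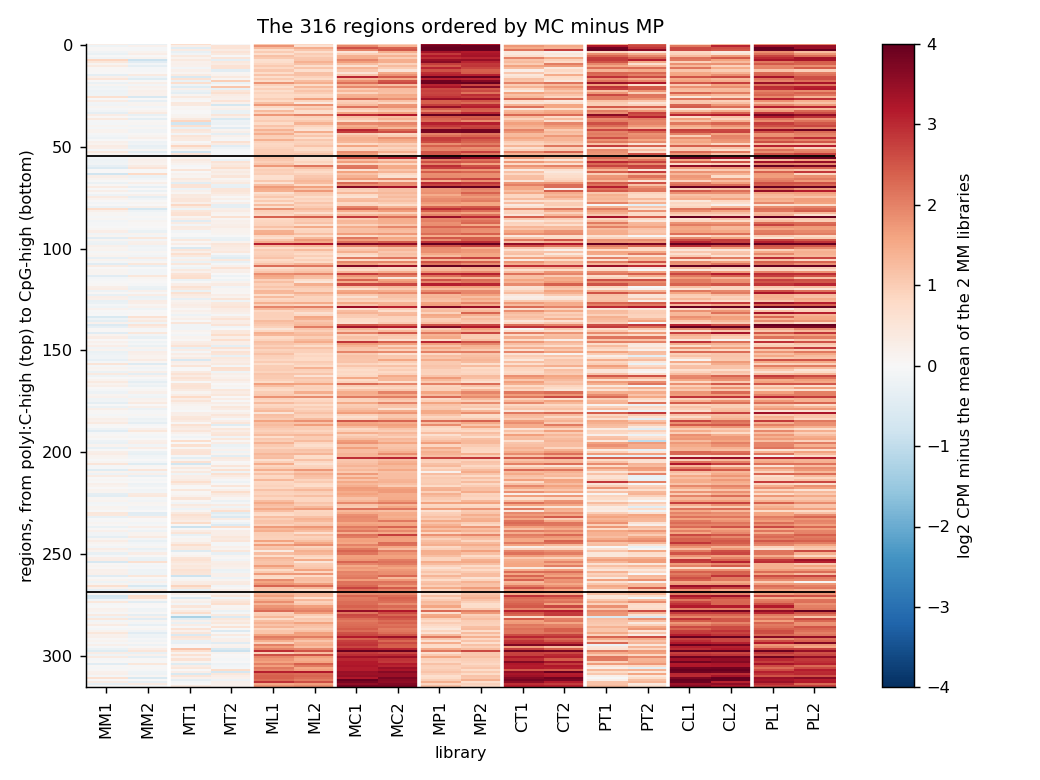
Each row is 1 of the 316 regions and each column 1 library. Colour gives log2 CPM minus the mean of the MM libraries. Rows are ordered by MC minus MP, and the black lines part the 55 regions at least 1 higher in MP (top) and the 47 at least 1 higher in MC (bottom) from the 214 between.

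The 4 groups with 2 stimuli took no part in choosing the regions, so differences among them were tested, with limma over all regions and an adjusted p under 0.05 as the call. Between CpG and polyI:C before TNF, 93 members were higher in CT (18% of all regions were called that way) and 61 were higher in PT (15.4%). The median of CT minus PT over the members was 0.17, against 0.02 over all regions. Between the same ligands before LPS, 18 members were higher in CL (4.63% of all regions) and 38 higher in PL (4.81%), with a median of -0.08. These calls can be set beside the single ligands. The differences do not use the single-ligand libraries, which enter the calls through the variance estimate only. The classes below are cut on MC minus MP, however, and the rule used both groups. Members also had TNF less than 0.4 above medium, a limit not set for all regions of a class. The shares per class are therefore descriptions. Of the 47 members in which CpG alone exceeded polyI:C alone by at least 1, 42 were higher in CT (89.4%, against 63.4% of the 2300 regions of that kind) and 0 in PT. Of the 55 members with polyI:C at least 1 above CpG, 31 were higher in PT (56.4%, against 59.7% of 1667 regions) and 1 in CT. Before LPS the corresponding counts were 13 of 47 higher in CL (27.7%, against 37.3% of the 2300 regions) and 21 of 55 higher in PL (38.2%, against 41.3% of the 1667). Among the 214 members in between, 50 were higher in CT (23.4%, against 16.5% of such regions) and 30 in PT (14.0%, against 14.6%). CL minus PL counts depended on single libraries: without a CL or PL library they were 4 to 7 higher and 12 to 14 lower, and without PT replicate 1 or 2, 30 or 31 higher. The 61 higher in PT were 28 without CT replicate 2, and with the MP pair as 1 sample the counts were 92 and 58 before TNF and 15 and 31 before LPS.

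**Figure D4:**
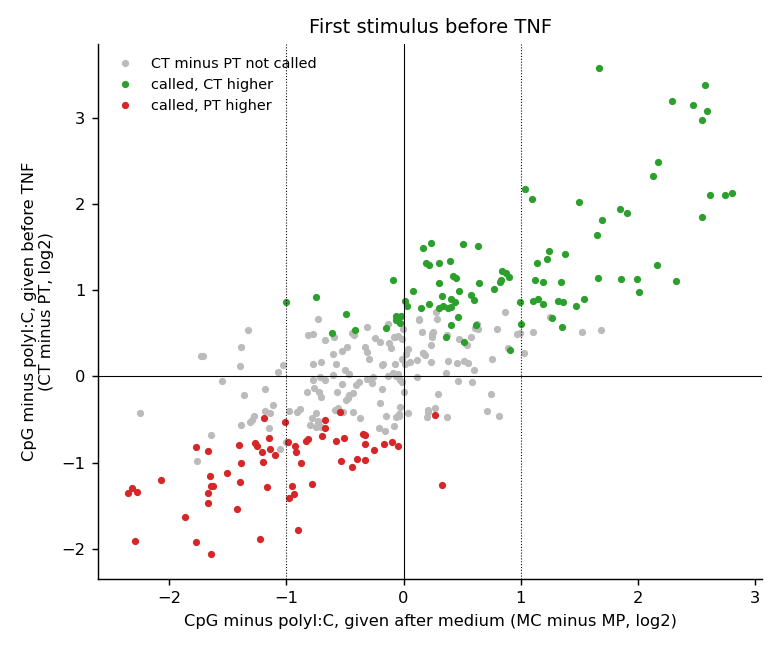
CpG minus polyI:C at each of the 316 regions (log2), given after medium (x axis, MC minus MP) and before TNF (y axis, CT minus PT). Green points are the 93 regions called higher in CT, red the 61 called higher in PT. Dotted lines mark a difference of 1 with the single ligands.

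The largest excess of CT over PT was at a site inside Ikzf1, the gene of the transcription factor Ikaros (chr11:11744253-11744754). MM read 1.70 and 1.32 log2 CPM there and MT 1.56 and 1.64. CT read 5.23 and 5.17 and PT 1.27 and 1.97, so that the PT libraries lay on either side of those of medium and TNF. CT minus PT was 3.58 (SE 0.24, limma adjusted p = 3.1e-13), and CL minus PL was 2.10 (SE 0.24, limma adjusted p = 6.7e-07), with CL at 5.41 and 5.31 and PL at 3.25 and 3.27. Batf, an AP-1 family factor that pairs with IRF proteins, had a site inside the gene (chr12:85703383-85703884) with 4.19 and 4.37 in CT and 0.50 and 1.28 in PT. There MM read 1.13 and -0.10 and MT 0.70 and 0.69, and CT minus PT was 3.39 (SE 0.31, limma adjusted p = 2.1e-10). Skap2, an adaptor of Src family kinases, read 3.42 and 3.36 in CT against 0.50 and -0.12 in PT, a difference of 3.20 (SE 0.31, limma adjusted p = 1.2e-09). The sites near Uaca (difference 3.15) and inside Abcc4, an exporter of cyclic nucleotides (3.08), were also among the 5 largest. Usp18 was higher in CT by 2.10 (SE 0.24, limma adjusted p = 4.8e-08).

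The regions higher in PT than in CT included interferon-induced genes. Cxcl10 read 1.16 and 1.31 log2 CPM in CT and 3.43 and 3.18 in PT, a difference of -2.07 (SE 0.30, limma adjusted p = 3.4e-06). Rsad2 read 1.87 and 1.74 in CT and 4.20 and 3.22 in PT (-1.91, SE 0.30, limma adjusted p = 9.3e-06). Of the 13 interferon-stimulated members, 7 were higher in PT and 2 in CT. Over all 202 regions of that list 70 were higher in PT and 8 in CT, with a median of -0.34. Outside the list, Nid1, a basement membrane protein gene, read 1.95 and 1.50 in CT and 3.43 and 3.79 in PT, and was lower in CL than in PL too, by -2.06 (SE 0.29, limma adjusted p = 1.6e-05). Chd2, a chromatin remodeller gene, and Cog4, a Golgi complex subunit gene, were lower in CL than in PL by -1.78 and -1.67. Stat3, the gene of a factor downstream of IL-6 and IL-10 receptors, stood at 3.57 and 3.37 in PL and 1.54 and 2.44 in CL, a difference of -1.48 (SE 0.39, limma adjusted p = 0.011). That call was lost without CL replicate 1 (-1.03) or either PL library (-1.38 and -1.58).

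Where LPS and TNF as second stimulus differed by the test, the members were more open with LPS. The rule had already set ML above MT at every member, so this direction is given as a description. Regions matched for ML over MT were not compared. After CpG, 16 members were higher in CL than in CT (0.245% of all regions) and 0 lower (0.1%), with 270 of 316 above 0 and a median of 0.33. After polyI:C, 123 members were higher in PL than in PT (6.49% of all regions) and 0 lower (3.72%), with 292 above 0 and a median of 0.60. Unadjusted limma p-values under 0.05 were found at 97 and 192 members, and at 6090 and 14814 of all 53796 regions. Of the 1552 regions opened by all 4 stimuli, 49 (3.16%, against 5.06% of the members) were higher and 0 lower after CpG. After polyI:C, 333 of them (21.5%, against 38.9% of the members) were higher and 5 lower. The medians for these 1552 regions were 0.31 and 0.33. The 123 became 55 without PL replicate 1, 76 without PL replicate 2, 63 without PT replicate 2 and 168 without PT replicate 1, and 109 with the MP pair as 1 sample. The 16 became 1 without CL replicate 1, 9 without CL replicate 2, 10 without CT replicate 1, 3 without CT replicate 2, and 35 or 36 without a PT library.

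Inflammatory effector sites were among the members with the largest excess after LPS. Of the 16 members in that list, 7 were higher in CL than CT (5.06% of all members) and 12 higher in PL than PT (38.9% of all members). Acod1 had 5 of the 16, Ccl5 4 and Ccl4 3, so these counts largely repeat a few loci. Over all 205 regions of the list, 16 were higher and 0 lower after CpG, and 52 higher and 0 lower after polyI:C. The Ccl5 site at chr11:83524002-83524503 read 3.79 and 3.54 log2 CPM in CL and 1.16 and 1.88 in CT, and 4.45 and 4.00 in PL and 2.73 and 1.45 in PT. The differences were 2.15 after CpG (SE 0.35, limma adjusted p = 0.0028) and 2.14 after polyI:C (SE 0.35, limma adjusted p = 1.2e-04), though the first lost its call without CL replicate 1 (2.02) or CT replicate 1 (1.79). The Acod1 site described above was higher by 1.26 after CpG (SE 0.23, limma adjusted p = 0.0049) and by 1.12 after polyI:C (SE 0.23, limma adjusted p = 0.0015). The site 4240 bp from Mir155 (chr16:84718444-84718945) read 4.30 and 4.25 in CL and 2.40 and 2.12 in CT, a difference of 2.01 (SE 0.25, limma adjusted p = 5.5e-05) and 1.09 after polyI:C (SE 0.25, limma adjusted p = 0.0051). Slamf1, a costimulatory receptor gene, was higher by 1.59 after CpG and 1.31 after polyI:C. The Il12b site, which had the highest CL level of those named (6.05 and 6.11), was higher by 0.50 in PL than in PT (SE 0.12, limma adjusted p = 0.006).

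The excess of LPS over TNF differed with the first stimulus at 20 members. It was smaller after CpG than after polyI:C at 19 (0.701% of all regions) and larger at 1 (0.158%), by a test of the difference of the 2 differences, with a median of -0.24 over the members. Unadjusted limma p-values were under 0.05 at 76 of the 316 members and at 9243 of all 53796 regions. Of the 19, 15 were among the 47 CpG-high members (31.9%, against 134 or 5.83% of the 2300 CpG-high regions). The rule had set ML above MT at every member, and the CpG-high class has MC at least 1 above MP. The 2300 regions were not matched for ML over MT, so these shares depend on that choice and are descriptions. In the 47 members the median levels were 4.30 in CL, 3.83 in CT, 3.68 in PL and 2.25 in PT, over 1.18 in MM. At Batf, LPS minus TNF was 0.12 after CpG and 3.16 after polyI:C, a difference of -3.03 (SE 0.43, limma adjusted p = 1.4e-04). The PL libraries there read 3.96 and 4.14 and the PT libraries, as above, at most 1.28. Nos2, the gene of inducible nitric oxide synthase, read 4.14 and 4.10 in CL, 4.00 and 4.08 in CT, 4.52 and 4.26 in PL and 3.23 and 2.59 in PT, where MM had 2.83 and 3.13 (difference -1.39, SE 0.29, limma adjusted p = 0.013). The count of 19 was 62 without PT replicate 1, 8 without CL replicate 2 or CT replicate 2, 9 without CL replicate 1 or PL replicate 1, 11 without PL replicate 2, and 16 with the MP pair as 1 sample. The 1 in the other direction was Cxcl10, with 1.87 after CpG and 0.15 after polyI:C, and that count was 0 when any of the 8 libraries other than PT replicate 1 was left out, and 5 without PT replicate 1.

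**Figure D5:**
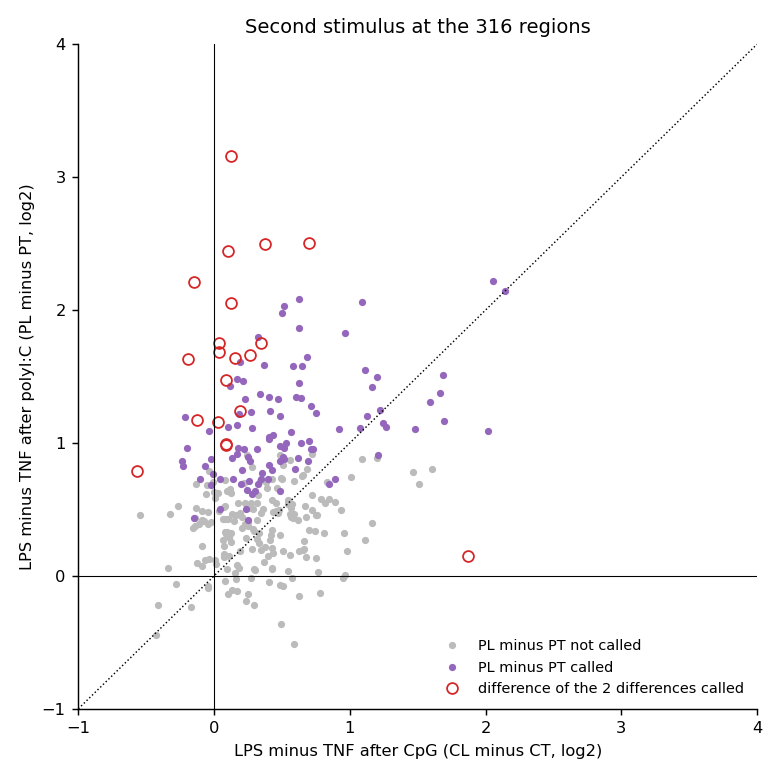
LPS minus TNF as second stimulus (log2) after CpG (x axis) and after polyI:C (y axis) at each of the 316 regions. Purple points are called in PL minus PT, open red circles are the 20 regions where the 2 differences were called unequal, and the dotted line marks equal differences.

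Members near receptors and signalling genes included several with no call among these 4 groups. Ifnar1, a subunit of the type I interferon receptor, read 4.12 and 4.12 log2 CPM in CL, 3.90 and 3.92 in PL, 3.80 and 3.79 in CT and 3.38 and 3.22 in PT, over 2.27 and 2.32 in MM, and passed no test. Tlr8 likewise passed none, with 0.19 and -0.10 in MM and 1.69 to 2.45 in the 8 libraries with 2 stimuli. Of the TNF receptor list, the sites inside Map3k5, a stress-activated kinase gene, and Cflar, a caspase-8 inhibitor gene, passed none. Tyk2, a kinase of the interferon receptor, was lower in CL than in PL by -0.82 (SE 0.20, limma adjusted p = 0.0071). Nfkb1, which encodes the p50 precursor, was higher in PL than in PT by 1.42 (SE 0.32, limma adjusted p = 0.0041). Socs3, a feedback inhibitor of STAT3 signalling, was higher in CT than in PT by 0.87 (SE 0.26, limma adjusted p = 0.011), with 2.74 and 3.66 against 2.59 and 2.08.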

How the data were processed

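The authors deposited log2 CPM per region and library. The tools named are Bowtie2 2.2.5 and SAMtools 1.9, then MACS3 3.0.0b1, Picard and featureCounts, with mm10, per the submitters' processing notes. How regions were merged is not given in the sources used here. The deposited log2 values return whole reads within 0.01 at 100% of values, with a prior averaging 3 reads, which understates differences at low regions such as these. Limma 3.58.1 (R 4.3.3) fitted the 9 group means over all 53796 regions, with trended variances (9 residual and 29.09 prior degrees of freedom), Benjamini-Hochberg adjustment and no filter. The fit was tested on simulated data. The simulation gave every group the same spread, so it does not cover the wider spread of PT. Genes and positions come from RefSeq GRCm38.p6, without strand, so places are relative to gene ends. Promoter windows of chromosome 18 were not used here.

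The members and lists were chosen with earlier results of these data known. Named regions are the largest called changes per comparison, the largest mean rises, up to 3 members per list, the activation genes, the genes with most members, members at gene ends and those nearest the thresholds. The text names some of them. The alternatives were other scalings, a filter, log2(CPM + 1), other variance models, voom on recovered reads, a replicate block, fewer groups in the fit, other thresholds and each library left out. Counting the MP pair as 1 sample was added after seeing the data. The labels do not tie replicate numbers across groups, and replicate differences of the 4 groups with 2 stimuli correlated at -0.358 to 0.113, so no pairing was used.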

Additional observations from a re-analysis of the deposited data

Results flagged for a closer look

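The LPS minus TNF difference depended on the first stimulus at 20 of the 316 regions, by the limma test of the difference itself (CL minus CT, less PL minus PT). It was below 0 at 19.0 and above 0 at 1.0. The rule had set ML above MT at every member, and regions matched for ML over MT were not compared. Named regions below 0 were Batf (-3.03), Uaca (-2.34), Abcc4 (-2.12), Skap2 (-1.80), Ikzf1 (-1.48) and Nos2 (-1.39). Cxcl10 was above 0 (1.72). PT replicates, which enter each of these values, stood farther apart than those of any other group (r = 0.919). The counts below and above 0 were 62 and 5 without PT replicate 1, and 15 and 0 without PT replicate 2.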

How the results depend on the processing

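Counts below are members called higher and lower. No setting called a member lower in CL minus CT or PL minus PT. After quantile normalization 187 regions met the rule. Among the original 316 members, that scaling gave CL minus PL counts of 30 and 59 and a CL minus CT count of 28. Voom on recovered reads gave 33 higher in CL minus PL and 42 higher in CL minus CT. A filter at the 25th percentile of mean level left 127 members, with 6 and 8 in CL minus PL, 49 and 13 in CT minus PT, 5 in CL minus CT, 59 in PL minus PT, and 0 and 12 in the difference of differences. Thresholds of 1 and 0.2 left 48 members, with 5 and 3, 23 and 3, 3, 32, and 0 and 5. These 2 settings test fewer members. The single higher call in the difference of differences became 0 with no variance trend (9 lower), with the 4 groups alone in the fit, with the replicate block and with the MP pair as 1 sample. For the other changes the cause was not tested.

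Leaving out 1 library gave 4 to 31 and 12 to 49 in CL minus PL, 62 to 101 and 28 to 57 in CT minus PT, 1 to 36 in CL minus CT, 55 to 168 in PL minus PT, and 0 to 5 and 8 to 62 in the difference of differences. It gave 297 to 393 members. With the replicate block the counts were 19 and 36, 93 and 61, 18 and 0, 124 and 0, and 0 and 19, and pairing changed no other direction. The 30 named differences kept their direction under every setting run, and 21 kept their call throughout. The median region held 8 to 18 reads per library in MM and MT, which limits the precision of the TNF difference; no detection limit was computed.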
